A study of Mus musculus with 60 samples.

Results

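Transcripts of 6 genes that mark primitive erythroid cells, the first red blood cells of the embryo, were followed through tailbuds of single mouse embryos. The members were fixed as a list of Ensembl transcript identifiers, 6 of the 117135 transcripts in the deposited tables. They are ENSMUST00000020531 (listed as Hba-x), ENSMUST00000093209 (Hba-a1), ENSMUST00000093207 (Hba-a2), ENSMUST00000033502 (Gata1), ENSMUST00000067060 (Klf1) and ENSMUST00000066337 (Alas2). No table at hand pairs these identifiers with gene symbols, so the pairing is the one given with the list and was not checked. The symbols are used below as names of these transcripts. Hba-a1 and Hba-a2 encode near-identical protein chains and share reads, so their values were summed and are called Hba-a, which left 5 measured units. All 6 transcripts passed the filter on low counts.

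Total RNA of the tailbud, the tissue at the rear end of the embryo from which the trunk and tail are extended, was sequenced in 27 libraries. There were 16 wild-type and 11 mutant embryos, and the design text gives the mutants as carrying JARID2 K116R, a substitution in an accessory subunit of Polycomb repressive complex 2. Embryos were staged by somites, the paired blocks laid down along the body axis. At 12, 13, 14 and 16 somites there were 4 wild-type embryos each, and mutants numbered 2, 2, 2 and 5. The tailbud labels give neither the strain, the litter or the sex, nor whether the mutants carry 1 or both alleles. They name no other allele or agent. Elsewhere in the series a sample is titled as a single Jarid2 mutant, beside others titled only as mutant. Whether the tailbud mutants carry a change besides JARID2 K116R is therefore not known here. Tailbud identity could not be checked against marker genes for want of the same pairing.

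Primitive erythroid cells arise in the blood islands of the yolk sac, enter the embryo with the onset of circulation and make haemoglobin before the liver begins to. They combine an embryonic zeta-type alpha-globin chain, encoded by Hba-x, and adult-type alpha-globin chains, encoded by Hba-a1 and Hba-a2, with beta-type chains and haem. GATA1 and KLF1 are transcription factors that drive the erythroid programme, and ALAS2 is the erythroid form of the first enzyme of haem synthesis.

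The promoters of the members are shown because GATA factors and KLF1 bind sites of known sequence. The windows are the 250 bases before the annotated start in RefSeq for GRCm38.p6, which were found for all 6 symbols. The search covered both strands for AGATAA and TGATAA, forms of the site that GATA factors bind, and for CCNCNCCC, the form of the CACC-type site that KLF1 binds. Capitals mark the matches, and a match on the reverse strand appears as its complement. The windows lie at chr11:32276350-32276599 (plus strand) for Hba-x, chr11:32283422-32283671 (plus) for Hba-a1, chrX:7967911-7968160 (minus) for Gata1, chr8:84901732-84901981 (plus) for Klf1 and chrX:150547167-150547416 (plus) for Alas2.
Hba-x: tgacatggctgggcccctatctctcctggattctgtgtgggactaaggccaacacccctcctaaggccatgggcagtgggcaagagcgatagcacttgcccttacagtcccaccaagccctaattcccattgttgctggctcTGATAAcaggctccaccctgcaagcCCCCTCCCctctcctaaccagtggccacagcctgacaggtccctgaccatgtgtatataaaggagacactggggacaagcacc
Hba-a1: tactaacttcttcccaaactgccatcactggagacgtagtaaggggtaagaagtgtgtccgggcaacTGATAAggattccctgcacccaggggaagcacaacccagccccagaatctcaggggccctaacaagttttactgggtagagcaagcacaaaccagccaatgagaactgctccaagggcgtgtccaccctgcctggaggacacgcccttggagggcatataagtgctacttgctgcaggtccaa
Gata1: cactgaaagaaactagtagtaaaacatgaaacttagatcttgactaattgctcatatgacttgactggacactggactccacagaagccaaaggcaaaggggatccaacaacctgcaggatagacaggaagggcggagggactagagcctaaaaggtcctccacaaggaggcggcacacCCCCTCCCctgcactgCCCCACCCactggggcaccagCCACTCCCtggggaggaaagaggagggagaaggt
Klf1: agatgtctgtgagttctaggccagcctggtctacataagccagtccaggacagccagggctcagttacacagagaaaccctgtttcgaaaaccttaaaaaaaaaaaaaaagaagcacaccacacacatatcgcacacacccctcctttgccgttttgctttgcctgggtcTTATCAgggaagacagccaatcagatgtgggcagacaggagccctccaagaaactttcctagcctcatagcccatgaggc
Alas2: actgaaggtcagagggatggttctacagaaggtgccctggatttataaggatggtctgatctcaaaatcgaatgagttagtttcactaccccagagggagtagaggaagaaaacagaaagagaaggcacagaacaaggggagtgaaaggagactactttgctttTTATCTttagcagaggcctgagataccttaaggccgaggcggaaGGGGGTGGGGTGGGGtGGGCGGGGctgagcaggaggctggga

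The Hba-x window held 1 TGATAA, beginning 108 bases before the start, and 1 CCNCNCCC. Hba-a1 held 1 TGATAA, and the Hba-a2 window (chr11:32296242-32296491, plus strand) is not printed because 247 of its 250 bases are identical to Hba-a1 at a shift of 3 bases. Klf1 held 1 TGATAA on the reverse strand, and Alas2 held 1 AGATAA and 4 CCNCNCCC on the reverse strand, some of which overlap one another. The Gata1 window held 3 CCNCNCCC and neither GATA form. Of all 32851 promoter windows of this length, 16.6% held AGATAA or TGATAA, 45.9% held CCNCNCCC and 4.52% held both kinds. TGATAA was added to the search after the data were seen. The GATA form planned before, AGATAA, occurred in the Alas2 window alone, beside 9.99% of all windows. These matches describe letters only, and binding was not measured here.

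The estimated counts summed to between 20908470 and 27090684 per library, and Gata1 rested on as few as 8.4 estimated reads in an embryo. Values in CPM, counts relative to the size of the library, are scaled with TMM factors, which correct for differences in library composition. Over log2 CPM of all tested transcripts, the mean r of a library with the others of its group was 0.836 to 0.898. The library lowest in this measure was mutant embryo 1 of 16 somites (0.836), and the next was wild-type embryo 4 of 14 somites (0.864). The latter also had the largest scaling factor (1.22) and the steepest gain with transcript length, 0.16 log2 units per doubling. Both also stood apart in several members. The tests below are therefore also given without each of them where this moved a value of a member by over 1.5 times. In bulk tissue, fewer blood cells and less RNA per blood cell cannot be told apart.

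Together the 6 transcripts took from 0.114% to 3.34% of a library's estimated counts, a 29.2-fold range between tailbuds. The lowest was wild-type embryo 4 of 12 somites and the highest wild-type embryo 4 of 14 somites. Without the latter the range was 20.3-fold. In wild type the lowest, median and highest shares were 0.114%, 0.761% and 3.34%, and in mutants 0.457%, 1.68% and 2.32%. The mutant range thus lay within the wild-type range, and no mutant was as poor in these transcripts as the lowest wild-type embryos. On the log2 scale the summed CPM averaged 12.45 ± 1.54 (SD, n = 16) in wild type and 13.76 ± 0.78 (SD, n = 11) in mutants, a difference of 1.31 log2 units beside a pooled SD of 1.29 between embryos. This sum is a description without a test. The globins made up 99.1% to 99.8% of it in every library, so it says little of the other 3 units.

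The embryonic globin Hba-x (ENSMUST00000020531) stood at 1166, 2267, 4755 and 529 CPM in the 4 wild-type embryos of 12 somites. At 13 somites the wild-type values were 683, 7451, 613 and 3484 CPM, and at 14 somites 4963, 6736, 926 and 13146 CPM. Each of these stages held at least 1 wild-type embryo under 1000 CPM and another at 4755 CPM or more. In mutants Hba-x stood at 5650 and 12093 CPM at 12 somites, at 3551 and 2129 CPM at 13 and at 5370 and 4597 CPM at 14. At 12 somites both mutants lay above all 4 wild-type embryos, and how many of all transcripts had this order was not counted. At 13 and 14 somites the mutants lay within the wild-type range.

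At 16 somites Hba-x was 816, 7838, 6597 and 3915 CPM in the wild-type embryos and 8403, 12278, 8976, 9701 and 8345 CPM in the mutants. Hba-a (ENSMUST00000093209 with ENSMUST00000093207) was 876, 8012, 7515 and 4798 CPM in wild type and 11931, 12287, 10667, 12030 and 9653 CPM in mutants. All 5 mutants thus exceeded all 4 wild-type embryos in both globin units at this stage. Of all tested transcripts 0.879% had this pattern. Among the units, 2 of 5 showed it, and Gata1, Klf1 and Alas2 overlapped between genotypes. The 2 globin units had an r of 0.980 over all embryos, so they are not 2 separate pieces of evidence. Over all stages 6 of 16 wild-type embryos lay below the lowest mutant in Hba-x and 7 of 16 in Hba-a, and no mutant lay above the highest wild-type embryo.

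**Figure D1:**
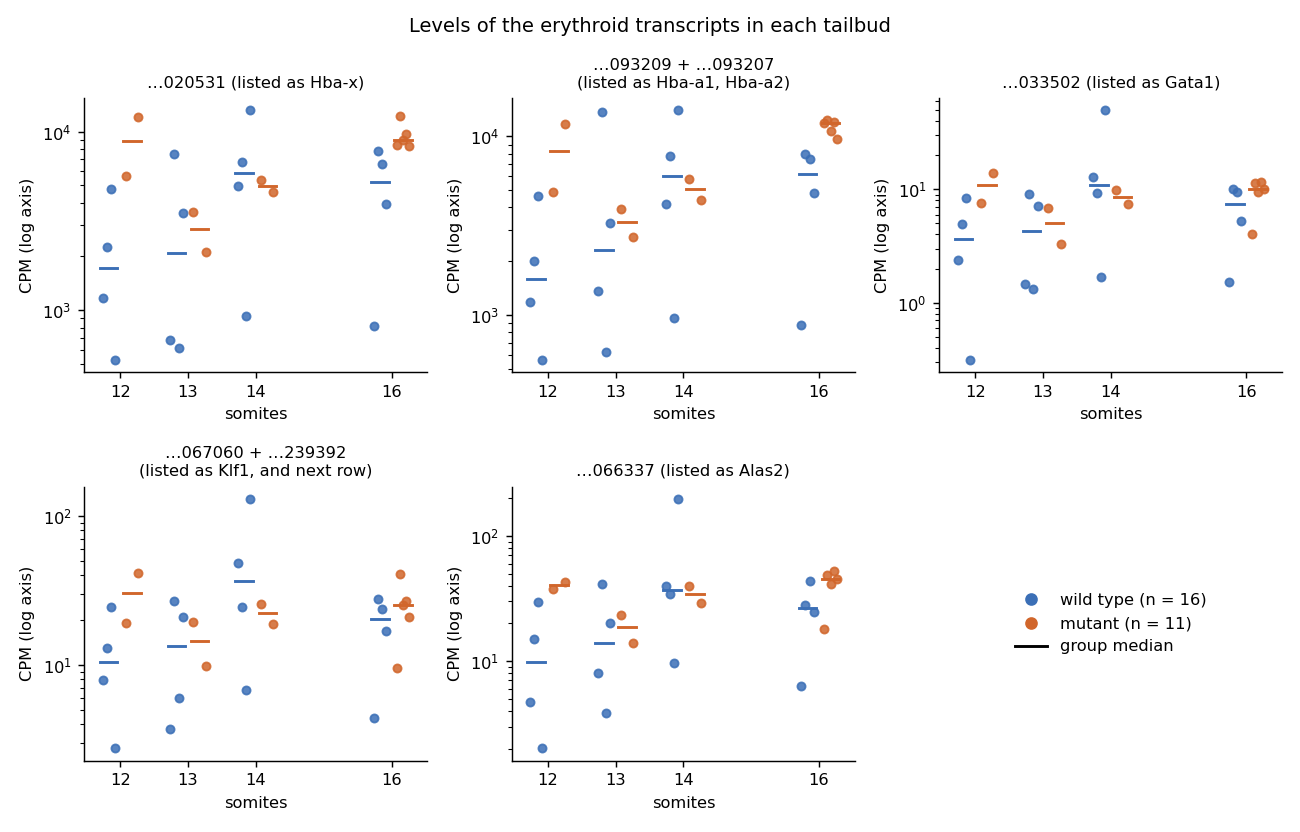
CPM (log axis) of each unit in each of the 27 tailbuds against somite number, with blue points for wild type (n = 16), orange points for mutants (n = 11) and bars for group medians; Klf1 is summed with the next row of the tables. At 16 somites the 5 mutants lie between 8345 and 12278 CPM for Hba-x, above the highest wild-type embryo at 7838 CPM.

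The copies of Hba-a contributed nearly equal counts: Hba-a1 (ENSMUST00000093209) took 45.2% to 51.8% of their sum. How far this split reflects the copies rather than the assignment of shared reads was not tested. Per length, Hba-x reached 739 to 25104 TPM, a level scaled by transcript length as well as by library, and Hba-a 1134 to 38117. Hba-a was the higher of the pair in all 27 embryos. The TPM ratio of Hba-x to Hba-a had a median of 0.658. In 25 embryos it ran from 0.494 to 0.834, whereas wild-type embryos 1 and 2 of 13 somites stood at 0.339 and 0.380. These 2 embryos differed 10.9-fold in Hba-x CPM, so the low ratio occurred at a low and at a high globin level. They also held the lowest shares of Hba-a1 among the copies, 45.2% and 46.1%. The next lowest ratio, 0.494, belonged to mutant embryo 1 of 16 somites.

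Gata1 (ENSMUST00000033502), the erythroid transcription factor, was far scarcer. In wild type its lowest, median and highest values were 0.315, 6.21 and 49.7 CPM, and in mutants 3.32, 9.44 and 14 CPM. The highest wild-type value, 49.7 CPM, was embryo 4 of 14 somites, and the next value in any library was 14.0 CPM. At 16 somites Gata1 was 1.52, 10.2, 9.46 and 5.26 CPM in wild type and 4.05, 11.3, 9.44, 11.6 and 10.1 CPM in mutants, with overlap between the genotypes. Mutant embryo 1 of that stage had much of the globin of its group (8403 CPM of Hba-x) and the lowest Gata1 of the 5.

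Relative to 1000 CPM of Hba-x, Gata1 ran from 0.481 CPM in mutant embryo 1 of 16 somites to 3.78 CPM in wild-type embryo 4 of 14 somites, with a median of 1.56. The embryos at both ends of this order are the 2 libraries that stood apart over all transcripts. Without them the range was 0.596 to 2.57 CPM. The part of library quality in these values was not tested.

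Klf1 (ENSMUST00000067060), the other erythroid transcription factor, was at 0 in 13 of 27 libraries, 9 wild-type and 4 mutant. The next row of the tables, ENSMUST00000239392, is 1534 bases long against 1530 for Klf1, and it was at 0 in 9 libraries. No library had both rows at 0: 9 had reads in the Klf1 row alone, 13 in the next row alone and 5 in both. Over the 27 embryos the residuals of their log2 levels from the group means had an r of -0.77. The estimated counts of both rows, rounded more coarsely than 0.01 before this check, added up to a whole number in all 27 libraries. Whether the unrounded sums were whole within 0.01 was therefore not tested. Only the 5 libraries with reads in both rows bear on a division of reads between them. The gene of ENSMUST00000239392 is not named in the tables used here.

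Summed over both rows, a step chosen after the data were seen, the level ran from 2.76 to 129 CPM, resting on 70 to 4100 estimated reads per library. At 16 somites this sum was 4.41, 27.7, 23.6 and 16.9 CPM in wild type and 9.59, 40.9, 25.1, 26.9 and 21.0 CPM in mutants. The genotypes overlapped, and wild-type embryo 1 was lowest, as it was in the globins. The row alone may change with the division of reads between the rows, which was not tested. The tests below therefore give its values beside those of the sum.

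**Figure D2:**
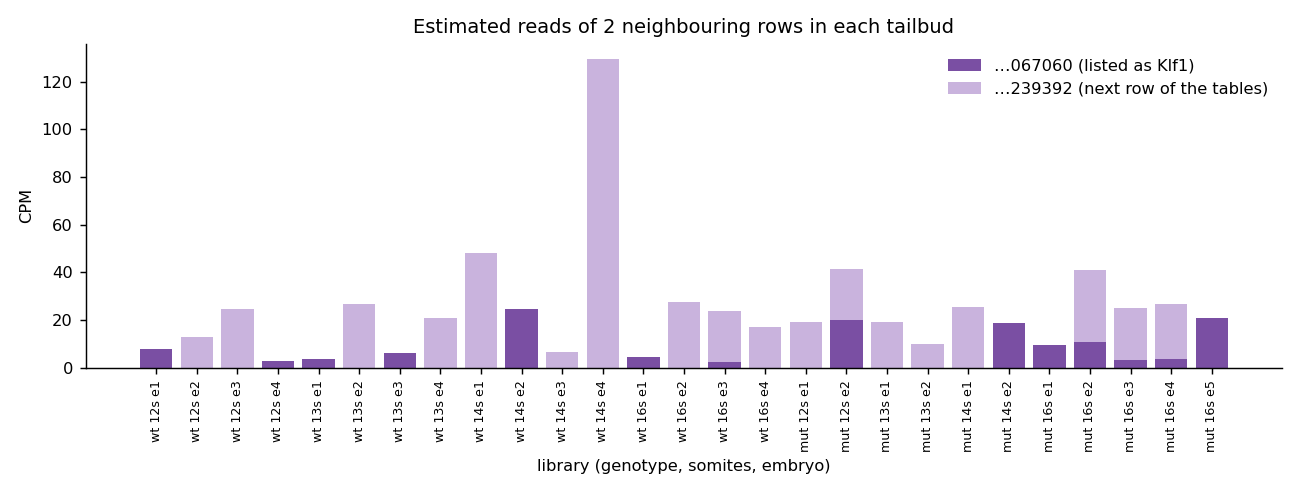
Stacked bars of CPM per library for ENSMUST00000067060 (listed as Klf1, dark) and the next row of the tables, ENSMUST00000239392 (light), in the 27 tailbuds (wt, wild type; mut, mutant; s, somites; e, embryo). In 22 libraries only 1 of the rows has reads, and the highest bar, wild-type embryo 4 of 14 somites, reaches 129 CPM.

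Alas2 (ENSMUST00000066337), which encodes the haem synthesis enzyme, had a lowest, median and highest value of 2.01, 22.4 and 196 CPM in wild type and of 13.9, 39.9 and 52.6 CPM in mutants. At 16 somites it was 6.37, 27.9, 43.6 and 24.8 CPM in wild type and 18.1, 48.8, 41.0, 52.6 and 44.9 CPM in mutants. Mutant embryos 1 and 3 lay within the wild-type range, and the other 3 above its highest value of 43.6 CPM. The highest value of all, 196 CPM, was again wild-type embryo 4 of 14 somites, and the next was 52.6 CPM. Per 1000 CPM of Hba-x, Alas2 ran from 2.15 to 14.9 CPM with a median of 6.28, and without the 2 libraries that stood apart from 3.56 to 11.8 CPM. Wild-type embryo 1 of 13 somites, one of the embryos with a low ratio of Hba-x to Hba-a, gave 11.8 CPM.

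**Figure D3:**
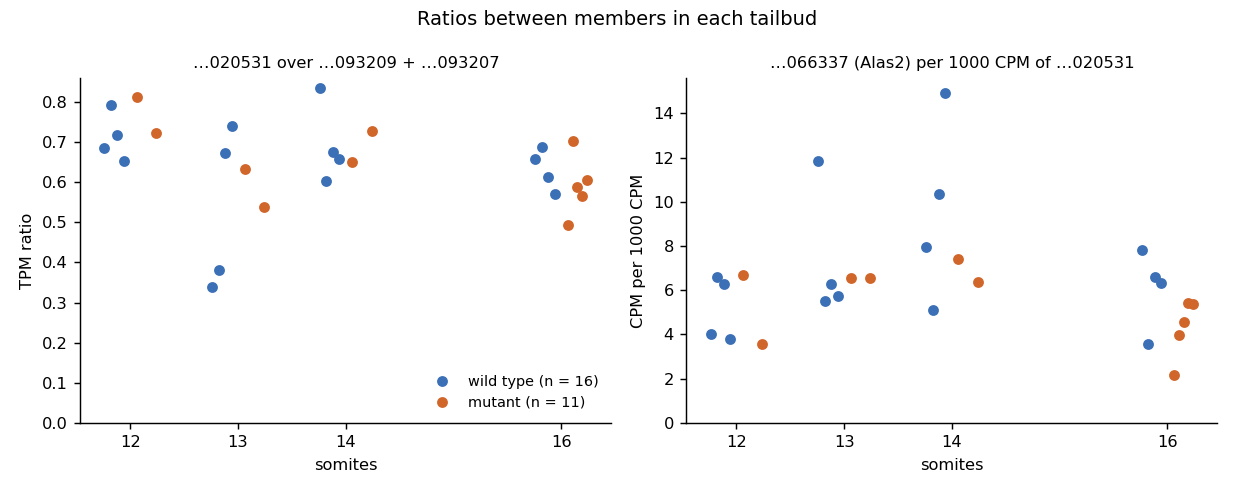
Ratios between members in each tailbud against somite number (blue, wild type, n = 16; orange, mutants, n = 11): the TPM ratio of Hba-x to Hba-a on the left and Alas2 CPM per 1000 CPM of Hba-x on the right. The 2 wild-type embryos at 0.339 and 0.380 lie below the other 25 on the left, and wild-type embryo 4 of 14 somites is highest on the right at 14.9.

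With both genotypes pooled, embryos of the same group differed widely in every member. The SD of log2 CPM within groups was 1.27 for Hba-x, 1.29 for Hba-a, 1.38 for Gata1, 1.28 for Alas2 and 1.22 for the sum of Klf1 and its neighbour. The median over the 24397 transcripts that averaged 1 CPM or more was 0.39, and these 5 SDs lay between the 82.9 and the 85.5 percentile. For the Klf1 row alone the SD was 3.40, at the 99.7 percentile. By genotype, the SD within groups of Hba-x was 1.57 in wild type and 0.40 in mutants, and Hba-a, Gata1 and Alas2 ran from 1.56 to 1.67 in wild type and from 0.39 to 0.60 in mutants. The mutant SDs of Hba-x (0.40) and Hba-a (0.39) were thus near the median over transcripts of 0.39, which pools both genotypes. The percentiles were not taken by genotype. Whether the spread differs between genotypes was not tested.

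Apart from the Klf1 row alone, the units rose and fell together from embryo to embryo. Over 27 embryos Pearson's r between the log2 CPM of Hba-x and Hba-a was 0.980, and Spearman's rho was 0.969. Gata1 and Alas2 followed with r = 0.968 and rho = 0.926, Hba-x and Alas2 with 0.919 and 0.893, and Hba-x and Gata1 with 0.911 and 0.873. For Hba-a, r was 0.902 with Alas2 (rho 0.876) and 0.872 with Gata1 (rho 0.808). Of 10 pairs among 5 units, these 6 passed a two-sided permutation test at a p of 1e-05 each for r, the smallest that 100000 resamples can give, and an adjusted p of 1.67e-05. The largest permutation p for rho among the 6 was 2e-05 (adjusted 3.33e-05).

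None of these 6 rested on group means alone: on residuals from the 8 group means r was 0.885 to 0.979. Without the 2 embryos farthest from the median of the first measure, r stayed between 0.823 and 0.971. In pairs with Hba-x or Hba-a these were wild-type embryos 4 of 12 somites and 3 of 13 somites. Wild-type embryo 4 of 14 somites, the highest in Gata1 and Alas2, thus stayed in those pairs. With any single embryo left out, that one included, the lowest r of the 6 was 0.851, for Hba-a and Gata1. Within wild type (n = 16) r ran from 0.912 to 0.977 and within mutants (n = 11) from 0.570 to 0.964. Pairs of a transcription factor or the enzyme with a globin gave the lower values in mutants, with 0.570 for Hba-a and Gata1. The values within a genotype are given without a test. All units of an embryo share its library and depth.

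The 4 pairs with the Klf1 row alone gave r from -0.18 to 0.03 and permutation p from 0.384 to 0.994 (adjusted 0.496 to 0.994). On residuals from the group means 1 of these 4 pairs passed, the Klf1 row with Alas2 at r = -0.45 (adjusted permutation p = 0.0253). With the next row added, r was 0.972 with Gata1, 0.934 with Alas2, 0.884 with Hba-x and 0.826 with Hba-a. All 10 pairs then passed, each with a permutation p of 1e-05. Without the 2 farthest embryos these 4 values were 0.971, 0.893, 0.851 and 0.771.

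**Figure D4:**
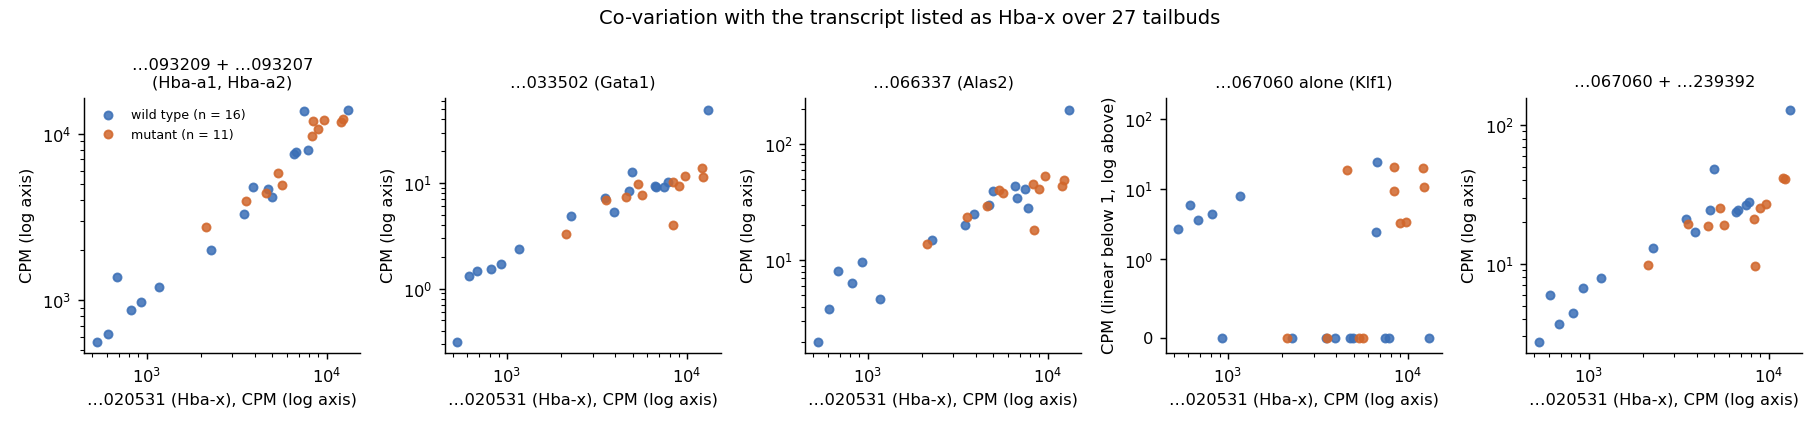
CPM of Hba-a, Gata1, Alas2, the Klf1 row alone and the sum of that row with its neighbour, each against CPM of Hba-x on a log axis, in 27 tailbuds (blue, wild type; orange, mutants); the axis of the Klf1 row is linear below 1. Points follow a rising line in every panel but that of the Klf1 row, where 13 embryos lie at 0.

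Other transcripts were ranked by likeness to the mean standardised level of the 5 units over the 27 embryos, with the Klf1 row alone as 1 of the 5. Among 24392 transcripts averaging 1 CPM or more, 21 had an r of at least 0.9 and 61 of at least 0.8. The most alike were ENSMUST00000063957 (r = 0.961) and ENSMUST00000028005 (r = 0.956). Without wild-type embryo 4 of 14 somites these values were 0.962 and 0.953. The most opposed were ENSMUST00000160719 (r = -0.791) and ENSMUST00000070375 (r = -0.703), and none reached -0.8. With the summed Klf1 rows in that mean, 42 transcripts had an r of at least 0.9 and 77 of at least 0.8, and ENSMUST00000063359 (r = 0.987) and ENSMUST00000097558 (r = 0.97) came first. The values of the 4 named before were then 0.971, 0.951, -0.749 and -0.661, and ENSMUST00000022638 (r = -0.712) stood second from the bottom. None of these transcripts has a symbol in the tables used here. Beside the members themselves, the row after Hba-x, ENSMUST00000145569, with a mean of 1487 estimated counts, had residuals with r = 0.930 to those of Hba-x. The row after Hba-a1, ENSMUST00000142555 (mean 201), gave 0.923 to Hba-a1, and that after Alas2, ENSMUST00000112715 (mean 163), gave 0.675 to Alas2. The row after Gata1 (mean 3.42) gave 0.166 to Gata1, and that after Hba-a2 had no reads.

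Whether mutants differ from wild type in these transcripts was tested with stage as a factor by edgeR's quasi-likelihood test over 45393 transcripts. None of the 5 units passed an adjusted p of 0.05, beside 0.0154% of all transcripts, and none had an unadjusted p under 0.05, which 7.63% of all had. Each of the 5 fitted changes was above 0, as were 48.3% of all, and their median was 0.72 log2 units beside -0.01 over all tested transcripts. All units but the Klf1 row alone rise and fall together, so they are not 5 separate pieces of evidence.

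In that fit the difference of mutant minus wild type was 0.77 log2 units for Hba-x (SE 0.47, 95% interval -0.20 to 1.73, adjusted p = 0.764) and 0.72 for Hba-a (SE 0.50, -0.30 to 1.75, adjusted p = 0.807). Gata1 gave 0.35 (SE 0.49, -0.66 to 1.36, adjusted p = 0.944) and Alas2 0.47 (SE 0.48, -0.52 to 1.47, adjusted p = 0.906). For the Klf1 row alone the change was 1.19 (SE 1.44, adjusted p = 0.931), and for the sum with its neighbour 0.27 (SE 0.45, adjusted p = 0.958). These intervals allow a globin level in mutants from 0.810 to 3.37 times that of wild type. A p that misses the threshold does not show that the genotypes have equal levels.

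The choice of model moved these values. With limma voom and quality weights, which give less weight to libraries that vary more, the difference was 1.31 log2 units for Hba-x (limma adjusted p = 0.227) and 1.26 for Hba-a (limma adjusted p = 0.256). All 5 units then had an unadjusted p under 0.05, as had 9.84% of all transcripts, and none an adjusted one, as had 0.0925% of all. limma on log2 TPM gave the 2 globin units under an unadjusted 0.05, as it did 13.1% of all transcripts, and DESeq2 gave none. With a numeric somite number in place of the stages Gata1 gave -0.0017 and Alas2 0.095. Hba-x then gave 0.74, Hba-a 0.64 and the Klf1 row 1.24.

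Single embryos moved them as well. Without mutant embryo 2 of 12 somites, the mutant with 12093 CPM of Hba-x, edgeR gave 0.53 for Hba-x, 0.45 for Hba-a, 0.16 for Gata1 and 0.34 for the Klf1 row. Without wild-type embryo 4 of 14 somites it gave 0.90, 0.86 and 0.58 for Hba-x, Hba-a and Gata1 and 0.72 for Alas2. Gata1 was 0.23 without wild-type embryo 4 of 12 somites, and the Klf1 row was 2.55 without wild-type embryo 2 of 14. The highest globin values came without wild-type embryo 2 of 13 somites, at 0.96 for Hba-x and 1.00 for Hba-a. All these changes stayed above 0.

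At 16 somites, the stage where the globins did not overlap, the fitted differences were 0.99 log2 units for Hba-x (SE 0.75, adjusted p = 0.885), 1.09 for Hba-a (SE 0.78, adjusted p = 0.862), 0.50 for Gata1 and 0.68 for Alas2. The Klf1 row alone gave 2.48 and the summed rows 0.45. By edgeR 0 of 5 units were called, beside 0% of all transcripts, and 0 had an unadjusted p under 0.05, which 6.14% of all had. DESeq2 also gave 0 at that unadjusted limit, and voom gave the 2 globin units, beside 6.78% of all. Wild-type embryo 1, at 816 CPM of Hba-x, carried part of the difference: without it Hba-x gave 0.66, Hba-a 0.75, Gata1 0.18 and Alas2 0.37. Without wild-type embryo 2 Gata1 gave 0.78, and without wild-type embryo 3 Alas2 gave 1.07. Mutant embryo 1, which stood apart over all transcripts, moved the values less, to 1.04, 1.08, 0.69 and 0.87 for Hba-x, Hba-a, Gata1 and Alas2 when it was left out. Fitted on the embryos of 16 somites alone, edgeR gave 1.01 for Hba-x (SE 0.51, unadjusted p = 0.079). Hba-a gave 1.11 in that fit (SE 0.50, unadjusted p = 0.054), and the edgeR adjusted p was 0.985 for both.

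Averaged over 12 to 14 somites the differences were 0.52 for Hba-x, 0.36 for Hba-a, 0.15 for Gata1 and 0.22 for Alas2. The Klf1 row alone gave -2.13, and the summed rows 0.042. None was called by edgeR, beside 0.0154% of all transcripts, and none had an unadjusted p under 0.05, which 6.16% of all had. Under that limit voom gave 3 units, beside 7.91% of all, which were Hba-x at 1.24, Hba-a at 1.14 and Alas2 at 1.09. DESeq2 gave 1, beside 7.33% of all, which was the Klf1 row at -6.59, in the opposite direction. With single embryos left out, Hba-x ran from 0.30 (without mutant embryo 2 of 12 somites) to 0.83 (without wild-type embryo 2 of 13), and Hba-a from 0.10 to 0.84 without the same embryos. Gata1 ran from -0.064 without mutant embryo 1 of 13 somites to 0.56 without wild-type embryo 4 of 14, and Alas2 from 0.075 to 0.67 without these. Without the last embryo Hba-a was 0.58. Each of these units thus moved by over 1.5 times with a single embryo left out.

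The effect at 16 somites minus that at 12 to 14 was 0.48 for Hba-x (95% interval -1.42 to 2.38) and 0.74 for Hba-a (-1.25 to 2.71), with adjusted p of 1 for both. Gata1 gave 0.35 and Alas2 0.46. By edgeR 0 of 5 units passed this test of the difference, beside 0.00441% of all transcripts, and 0 had an unadjusted p under 0.05, which 4.14% of all had. DESeq2 gave 1 unit under that limit, beside 4.77% of all, which was the Klf1 row at 9.10, and voom gave none. Left-out embryos lowered the difference to 0.14 for Hba-x (without wild-type embryo 1 of 16 somites) and 0.26 for Hba-a (without wild-type embryo 2 of 13). Without wild-type embryo 4 of 14 somites it was 0.29 for Hba-x, 0.53 for Hba-a, -0.048 for Gata1 and 0.025 for Alas2, and without mutant embryo 1 of 16 somites it was 0.54 for Gata1.

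**Figure D5:**
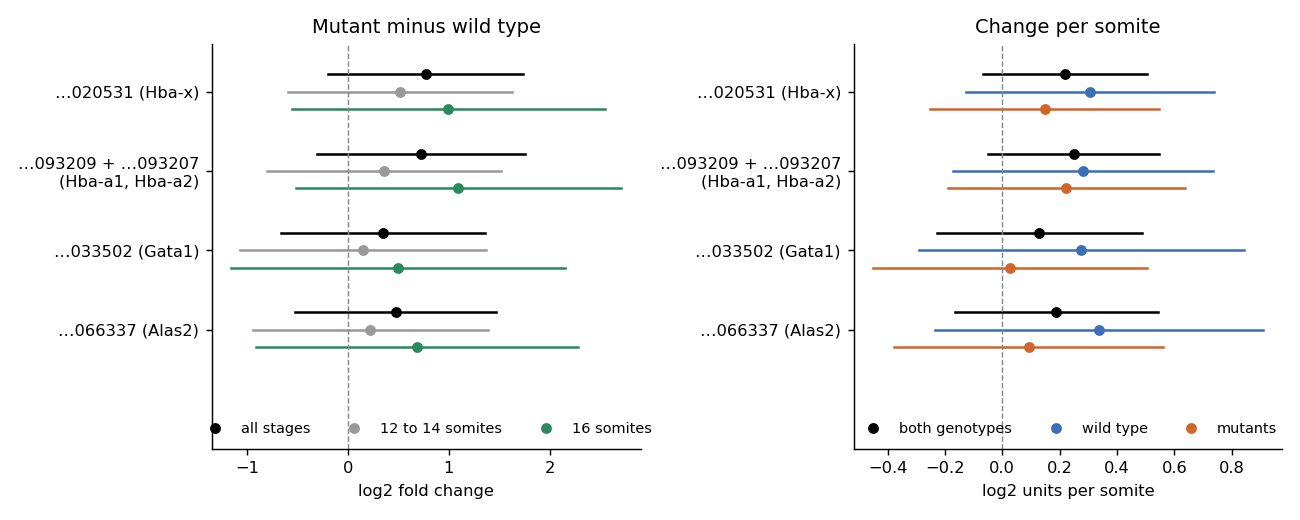
Points are edgeR estimates and lines their 95% intervals for Hba-x, Hba-a, Gata1 and Alas2: mutant minus wild type in log2 units on the left (all stages, 12 to 14 somites, 16 somites) and the change per somite on the right (both genotypes, wild type, mutants). Every interval includes 0, and every point lies above it; for Hba-x over all stages the point is at 0.77 and the interval runs from -0.20 to 1.73.

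Whether the levels change with somite number was tested as a slope. Over both genotypes it was 0.22 log2 units per somite for Hba-x (SE 0.14, 95% interval -0.07 to 0.50, edgeR adjusted p = 0.876) and 0.25 for Hba-a (SE 0.15, -0.05 to 0.55, edgeR adjusted p = 0.849). Gata1 gave 0.13, Alas2 0.19, the Klf1 row alone 0.048 and the summed Klf1 rows 0.10 log2 units per somite. By edgeR 0 of 5 units were called, beside 0.2% of all transcripts, and 0 had an unadjusted p under 0.05, which 6.52% of all had. Under that limit voom gave 4, beside 9.27% of all, which were Hba-x, Hba-a, Alas2 and the Klf1 row, and it called 0. Over 12 to 14 somites alone the common slope was 0.36 for Hba-x, 0.38 for Hba-a, 0.69 for Gata1, 0.78 for Alas2 and 0.35 for the Klf1 row, and edgeR called 0 units there too. Without mutant embryo 2 of 12 somites the common slope over all stages was 0.33 for Hba-x, 0.36 for Hba-a and 0.21 for Gata1, and without wild-type embryo 4 of 12 somites it was 0.080 for Gata1.

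In wild type the slopes were 0.31 for Hba-x, 0.28 for Hba-a, 0.28 for Gata1 and 0.34 for Alas2, with 0 units called beside 0.0242% of all. The Klf1 row alone gave -0.08 and the summed rows 0.24. Without wild-type embryo 4 of 12 somites the Gata1 slope was 0.16 and that of Alas2 0.22, and without wild-type embryo 1 of 16 somites Gata1 gave 0.43. In mutants the slopes of Hba-x, Hba-a, Gata1 and Alas2 were 0.15, 0.22, 0.03 and 0.09, with 0 called beside 0.0507% of all. The Klf1 row gave 0.14 there and the summed rows 0.0060. Without mutant embryo 2 of 12 somites, 1 of only 2 mutants at that stage, the mutant slopes were 0.35 for Hba-x, 0.43 for Hba-a, 0.15 for Gata1 and 0.16 for Alas2. Without mutant embryo 1 of 16 somites Gata1 gave 0.075 and Alas2 0.14.

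The difference in slope between genotypes was -0.16 for Hba-x (95% interval -0.75 to 0.43) and -0.25 for Gata1 (-0.99 to 0.49), and again 0 units were called, beside 0% of all. For Hba-a the difference in slope was -0.058 and for Alas2 -0.25. It was 0.043 for Hba-x and -0.13 for Gata1 without mutant embryo 2 of 12 somites. Without wild-type embryo 4 of 14 somites it was -0.17 for Gata1, -0.029 for Hba-a and -0.15 for Alas2. For Gata1 it was -0.40 without wild-type embryo 1 of 16. In these 3 tests 0 units had an unadjusted p under 0.05 by edgeR, which 3.49% of all transcripts had for the wild-type slope, 8.92% for the mutant slope and 4.58% for the difference. DESeq2 gave 0 units under that limit in all 4 slope tests. voom gave 1 in these 3, the Klf1 row in mutants at 1.74 log2 units per somite, beside 7.34% of all.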

How the data were processed

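Genotype, somites and embryo number came from the sample titles, and the 33 samples of the series that are not tailbud RNA were not analysed here. The authors deposited 1 table per library with, per the file headers, length and effective length, TPM and the estimated count of reads of 117135 transcripts. The submitters' processing notes name Salmon 1.5.2, Trim Galore 0.5.0, DESeq2 1.46.0 and the build mm10 among their tools without roles, and the annotation release, library kit and strandedness are not given in the sources used here. The deposited TPM values are relative to each library. Such estimates divide reads that match several transcripts, so near-identical rows can trade reads.

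The members, gene lists and tests were chosen with earlier results of these data known. All 6 members were to be named, with the 2 transcripts most like and the 2 least like their mean standardised level. The lists of erythroid, endothelial, megakaryocyte, macrophage and tailbud markers could not be run, because 0 identifiers matched the gene tables, and tests stayed at the level of the transcript. The TGATAA motif and the sum of Klf1 with its neighbour were chosen after seeing the data.

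Estimated counts were rounded and the Hba-a copies summed. filterByExpr on the 8 groups kept 45393 rows. Quasi-likelihood tests of edgeR 4.0.16 in R 4.3.3 with TMM factors gave log2 fold changes, and p-values were adjusted by Benjamini-Hochberg over all rows, with calls under 0.05. All 27 libraries entered each main fit. Levels are TMM-scaled CPM, with a prior count of 2 in log2 values for correlations. Log2(TPM + 0.5) was tested with limma 3.58.1 as an alternative, beside voom, DESeq2 1.42.0, other filters and scalings and single embryos left out. The edgeR procedure was tested on simulated data. It kept to its error rate there when transcripts shared a common trend of dispersion and made more false calls when each had its own, so the counts over all transcripts may hold more false calls than the threshold allows. Nothing in the labels used here says that embryos came from separate litters, so p-values weigh differences against the spread between these samples only. The main fits shared 1 estimate of that spread over both genotypes and all stages. For Hba-x the SD within groups was 1.57 in wild type and 0.40 in mutants. Figures were drawn with matplotlib 3.10.9.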

Additional observations from a re-analysis of the deposited data

Results flagged for a closer look

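Values far from the rest of their group were looked for with Dixon's test in groups of 4 or 5 embryos, over 9 measures and 45 tests. For separate tests of normally distributed values chance flags about 1 in 20, or 2.25 of 45, and 5 were found. Most measures were CPM without a log and they share units that rise and fall together, so 2.25 is only a guide. Gata1 in mutant embryo 1 of 16 somites was 4.05 CPM, below the other 4 mutants of its stage. Alas2 in wild-type embryo 4 of 14 somites was 196 CPM, above the other 3 of its group. Klf1 as a single row was 24.6 CPM in wild-type embryo 2 of 14 somites and 0 in the other 3, where the next row had reads. Gata1 per 1000 CPM of Hba-x was 1.22 in wild-type embryo 2 of 13 somites, below the others of its group. Alas2 per 1000 CPM of Hba-x was 11.8 in wild-type embryo 1 of 13 somites, above the others. The last pair of embryos are those with the lowest ratio of Hba-x to Hba-a.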

How the results depend on the processing

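No single value of a unit was called under any setting: 459 values under other settings and 1080 with an embryo left out, with a smallest adjusted p of 0.195. Of these, 13 and 16 changed sign.

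Gata1 over all stages gave -0.0017 with a numeric somite number. The Klf1 row at 12 to 14 somites gave 0.13 with log2 TPM, 0.30 with these embryos alone and 0.042 with its neighbour added. That sum also gave 0.24 for the wild-type slope and -0.23 for the difference in slope. With voom the difference of the genotype effect between stages was -0.092 for Gata1 and -0.013 for Alas2, and the Hba-a difference in slope was 0.027. The r of the Klf1 row on residuals was -0.35 with Hba-x, -0.31 with Hba-a and -0.45 with Alas2, the last with an adjusted permutation p of 0.0253, and with log2 TPM -0.012 with Hba-x. With the neighbour added it was 0.97 with Gata1 and 0.93 with Alas2, and 10 pairs passed in place of 6. The causes were not tested, nor was a trade of reads between the Klf1 row and its neighbour.

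In 10 pairs of same-numbered mutant and wild-type embryos, deviations from the group means had r from -0.07 to 0.03. This cannot decide whether same-numbered embryos shared a litter or a batch, because the labels give neither. With the number as a replicate block, Hba-x over all stages was 0.99 and Hba-a 0.92 log2 units, 0 of 5 units were called, the stage difference was -0.11 for Gata1 and -0.067 for Alas2, and the mutant slope -0.070 for Gata1 and -0.041 for Alas2.

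With each of the 27 embryos left out in turn, ranges that crossed 0 were -0.064 to 0.56 for Gata1 and -5.79 to 1.28 for the Klf1 row at 12 to 14 somites, -0.048 to 0.63 for the stage difference of Gata1, -0.20 to 0.12 for the wild-type slope and -0.049 to 0.32 for the common slope of the Klf1 row, -0.018 to 0.15 for the mutant slope of Gata1, and -0.27 to 0.043 for Hba-x and -0.18 to 0.15 for Hba-a in the difference of slopes. The r of the Klf1 row ran from -0.065 to 0.068 with Hba-x and from -0.032 to 0.10 with Hba-a. The number of co-varying pairs was 6 in each, and the count of called units was 0 in each. Where 1 mutant of a stage is left out, the other is assumed to vary like the other groups. Depth limits Gata1, Alas2 and the Klf1 rows, with as few as 8.4, 51 and 70 estimated reads.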
